A study of Mus musculus with 18 samples.

Results

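The 9 genes described here encode surface antigens used to stage B-lineage cells between the pro-B cell and the mature B cell. They were taken by name (Spn, Cd93, Cd24a, Bst1, Enpep, Cd37, Cd38, Cd40 and Ms4a1) from the 32285 genes of an RNA-seq count table, and all 9 were found. RNA was measured in 18 libraries, 3 in each of 6 groups, of flow-sorted, CD45.2-positive cells from the bone marrow of C57BL/6 mice. The cells are called iLS in the labels, which do not spell the name out. The groups were cells with BRD9-NUTM1 (BN1), cells with AFF1-NUTM1 (AFFN1) and control cells without a fusion, each on day 14 and on day 6. All 6 groups share the strain and the CD45.2 label. The sources used here do not give how the fusions were introduced, the promoter that drives them or the age of the animals. They also do not say whether replicates came from separate animals or cultures, so the p-values cover the spread between libraries, some or all of which may be technical.

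B cells form in the bone marrow through ordered stages that are told apart by the proteins on their surface. CD43 (Spn), a sialomucin, and CD93, a C-type lectin-like receptor known to B cell biologists as AA4.1, mark progenitors, and CD43 is lost from small pre-B cells onward. CD24 (Cd24a), BST1 (BP-3) and the aminopeptidase BP-1 (Enpep) are gained as pro-B cells pass towards the pre-B stage. CD20 (Ms4a1), CD37, CD38 and CD40 are best known from later B cells, although mouse CD38 is also present on other leukocytes and on progenitors. RNA levels, as measured here, are not surface levels, and in bulk samples fewer cells with a transcript and less RNA per cell cannot be told apart.

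Total counts ran from 14182539 to 18383449 per library. All 9 listed B-lineage markers (Cd79a, Ebf1 and Pax5 among them) averaged over 5 counts per 1000000 counts (CPM) in every group. Of the listed T cell markers, the CD3 genes Cd3e, Cd3g and Cd3d had at most 3 reads in any day 14 group, while Lck and Thy1 were expressed. The 2 days differed in more than time. Xist had 233 to 504 CPM in the 9 day 14 libraries and 0.0559 to 0.263 CPM in the 9 day 6 libraries, and the summed level of 4 Y-linked genes was 0 to 0.062 CPM on day 14 and 228 to 319 CPM on day 6, as in female and male animals. The sample descriptions also follow another naming scheme on each day. A difference between the days therefore cannot be told apart from a difference of sex or of experiment. Within day 14, the libraries control 1 and AFFN1 1 stood apart, with Ly6a at 1070 and 1170 CPM against 25.3 to 181 CPM in the other 7. Within day 6, BN1 3 and control 3 had 43.9 and 29.0 CPM of the heat shock gene Hspa1a, against 0.789 to 2.5 CPM in the other 7. Some results are also given without libraries that stood apart. On day 14 control 1 and AFFN1 1 were left out together, while BN1 1 of the same number was kept. On day 6 all 3 libraries numbered 3 were left out, AFFN1 3 included. Other results are given only without 1 library at a time or with all libraries.

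RefSeq promoter sequences (assembly GRCm38.p6, the assembly of mm10; 250 bases before to 50 bases after the start) were at hand for 4 of the 9 genes, Cd37, Cd38, Spn and Enpep. Shown are, of the 8 genes that passed the filter on low counts, the promoters of Cd38, with the largest difference between fusion and control cells, of Enpep, with the largest difference between the days, and of Spn, with no call in any comparison. Capitals mark matches, on either strand, to an ETS core (GGAAGT), an E-box (CAGGTG) or an EBF site (TCCC, any 2 bases, then GGGA), none of which overlap one another here.
Cd38 promoter, chr5:43868559-43868858, plus strand: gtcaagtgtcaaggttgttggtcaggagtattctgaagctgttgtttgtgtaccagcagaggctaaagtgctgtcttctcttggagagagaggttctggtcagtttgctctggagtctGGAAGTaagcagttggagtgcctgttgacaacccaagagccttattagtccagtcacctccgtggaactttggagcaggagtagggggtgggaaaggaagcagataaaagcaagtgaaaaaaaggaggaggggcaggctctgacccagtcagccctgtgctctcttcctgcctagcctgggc
Enpep promoter, chr3:129332700-129332999, minus strand: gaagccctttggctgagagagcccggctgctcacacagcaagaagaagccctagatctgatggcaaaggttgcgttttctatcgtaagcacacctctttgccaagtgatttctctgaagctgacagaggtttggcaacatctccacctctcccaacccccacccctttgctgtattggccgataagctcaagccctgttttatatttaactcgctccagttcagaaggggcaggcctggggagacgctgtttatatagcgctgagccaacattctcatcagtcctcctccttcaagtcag
Spn promoter, chr7:127137774-127138073, minus strand: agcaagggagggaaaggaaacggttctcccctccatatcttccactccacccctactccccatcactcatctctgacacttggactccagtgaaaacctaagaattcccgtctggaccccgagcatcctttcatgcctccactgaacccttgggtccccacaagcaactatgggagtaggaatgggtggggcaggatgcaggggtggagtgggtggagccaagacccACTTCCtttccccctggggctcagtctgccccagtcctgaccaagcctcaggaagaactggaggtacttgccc
The Cd38 and Spn promoters each held 1 ETS core and neither other motif, and the Enpep promoter held none of the 3. The promoter of Cd37, not shown, held 2 ETS cores and 1 E-box. Among 32817 promoters of the same length, 23.8% held the ETS core, 20.2% the E-box and 0.905% the EBF site. A match describes letters only, and no match says only that these letters are not in the window.

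**Figure D1:**
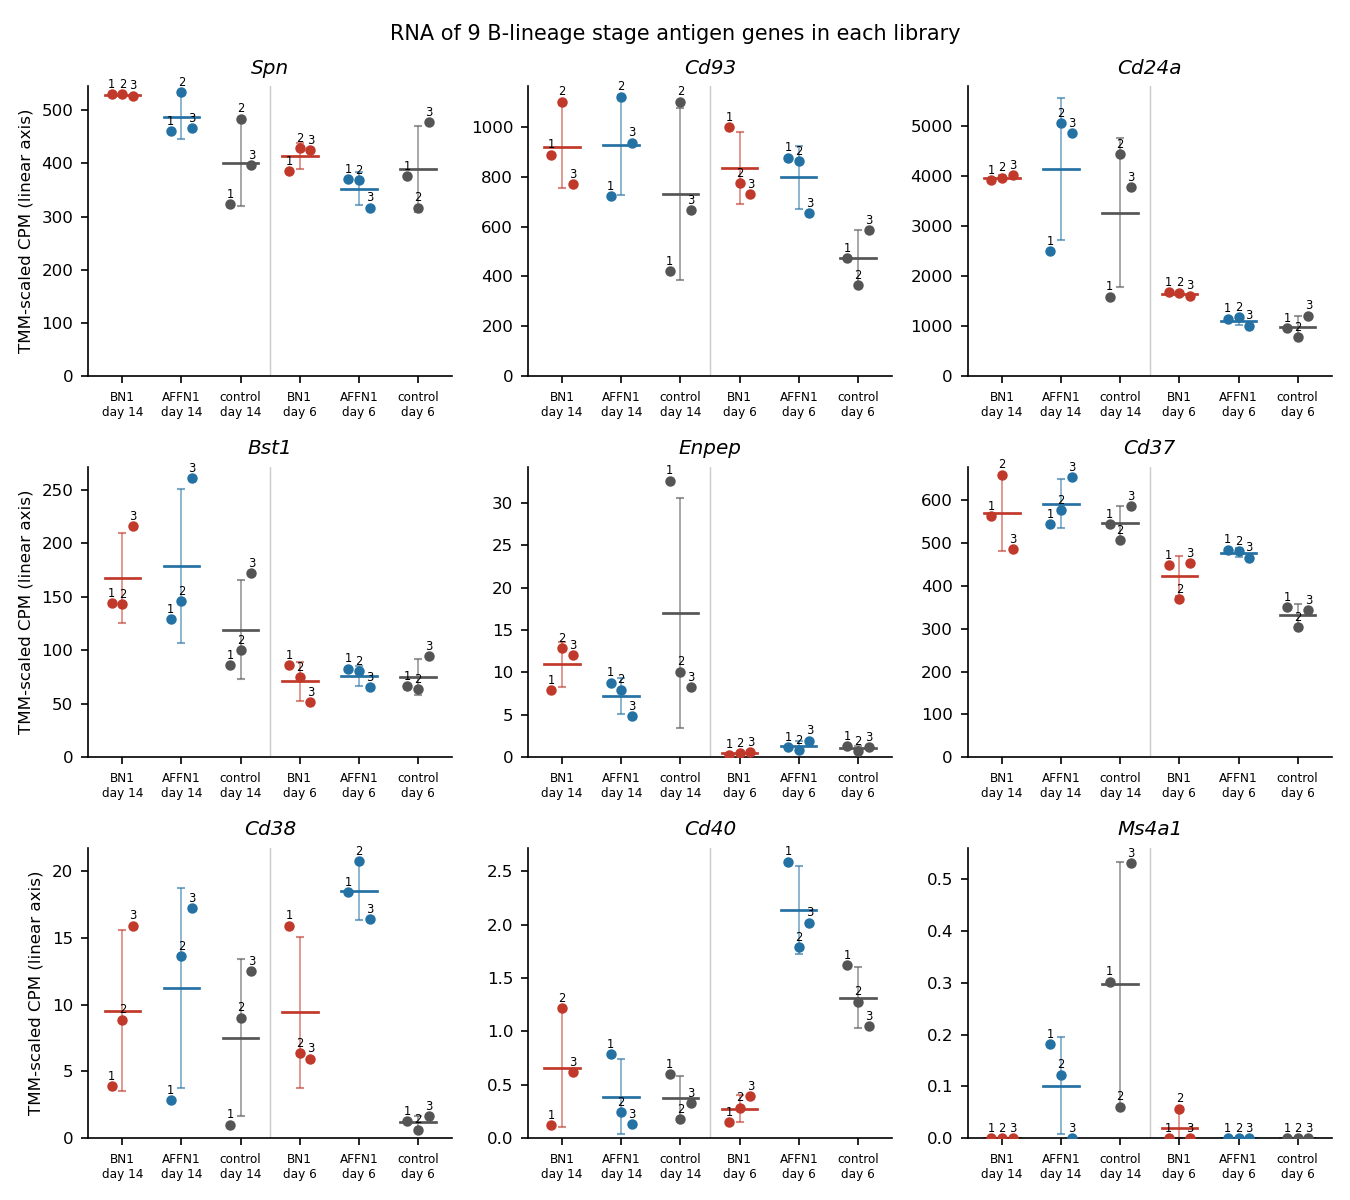
CPM of each gene in each of the 18 libraries, on 1 scale over all libraries (linear axes from 0; numbers beside points are replicate numbers, bars are means and whiskers 1 SD, n = 3). Enpep is higher in all 9 day 14 libraries than in all 9 day 6 libraries, and Cd38 is lowest in the day 6 control group and in the day 14 libraries numbered 1.

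Levels are given as CPM, scaled by TMM over all 18 libraries together. Per kilobase of exon, Cd24a was the highest of the 9 genes in every group, from 382 ± 83.4 CPM per kilobase in day 6 control cells to 1600 ± 551 CPM per kilobase in day 14 AFFN1 cells (SD, n = 3). It stood at the 99.3rd to 99.8th percentile of 12558 tested genes with an exon length. Cd93, Cd37 and Spn followed at 71.1 to 168 CPM per kilobase, and their order changed between groups. In day 6 BN1 cells Cd93 had 125 ± 21.5, Cd37 120 ± 13.3 and Spn 88.2 ± 5.19 CPM per kilobase, so Cd93 and Cd37 did not differ beyond their spread. Bst1 came next, at 21.4 to 53.8 CPM per kilobase. Cd38 and Enpep stood at 0.307 to 4.75 and 0.0984 to 3.61 CPM per kilobase over the groups. In day 14 BN1 cells they did not differ beyond their spread, at 2.46 ± 1.56 and 2.33 ± 0.559 CPM per kilobase. Cd40 stayed at 0.0819 to 0.627 CPM per kilobase, and Ms4a1 had at most 0.0481 CPM per kilobase.

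**Figure D2:**
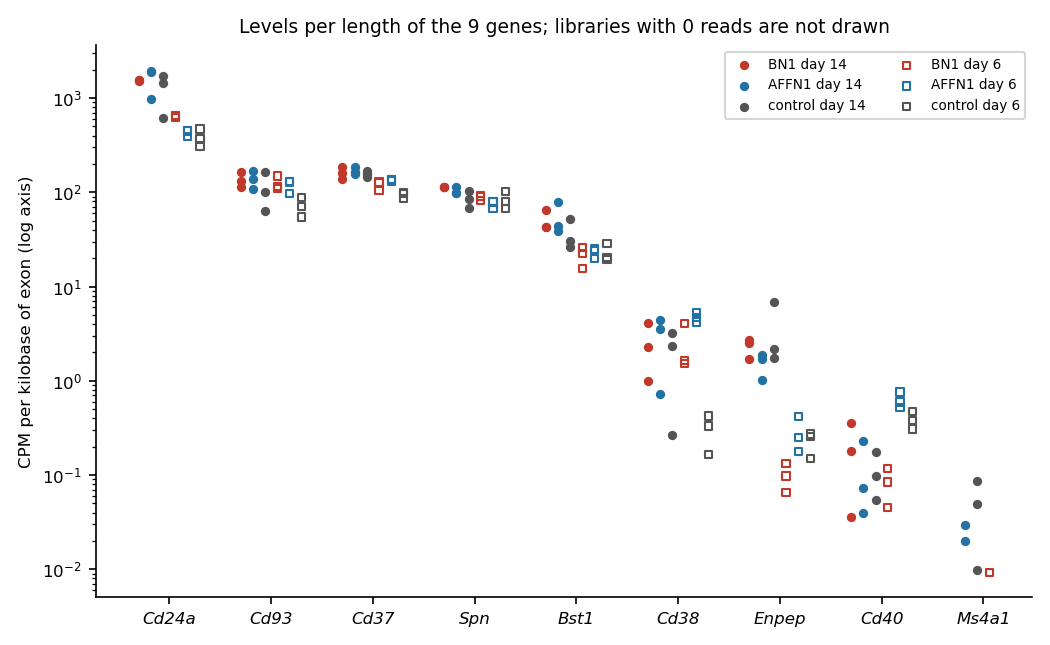
CPM per kilobase of exon (log axis) of the 9 genes in each library, filled circles for day 14 and open squares for day 6, coloured by BN1, AFFN1 and control; libraries with 0 reads are not drawn. Cd24a is the highest and Ms4a1 the lowest of the 9 genes.

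Among the antigens of progenitors, Spn (ENSMUSG00000051457; mm10 chromosome 7, 127132232 to 127137823, minus strand) varied least. On day 14 it had 530, 530 and 527 CPM in BN1 cells, 461, 534 and 466 CPM in AFFN1 cells and 323, 484 and 397 CPM in control cells. The BN1 libraries all stood above the control libraries, and the AFFN1 libraries overlapped them. On day 6 it had 385, 429 and 425 CPM in BN1 cells, 371, 369 and 317 CPM in AFFN1 cells and 376, 317 and 477 CPM in control cells, and all groups overlapped apart from BN1 and AFFN1. No comparison called Spn by edgeR's quasi-likelihood test with Benjamini-Hochberg adjustment over all genes. The BN1 difference from control on day 14 was 0.38 (log2, SE 0.16, adjusted p = 0.215), with an interval of 2 SEs from 0.07 to 0.69. In the control cells of the 2 days the log2 difference, day 14 over day 6, was 0.04 with an interval of -0.26 to 0.34.

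Cd93 (ENSMUSG00000027435; mm10 chromosome 2, 148436640 to 148443563, minus strand) was higher with either fusion on day 6. It had 998, 775 and 730 CPM in BN1 cells, 876, 861 and 653 CPM in AFFN1 cells and 474, 365 and 585 CPM in control cells of that day. Every fusion library stood above every control library. The edgeR log2 difference from control was 0.80 (SE 0.19, adjusted p = 0.0168) for BN1 and 0.74 (SE 0.19, adjusted p = 0.0285) for AFFN1. The BN1 call was lost without BN1 1 (adjusted p = 0.0733) or control 1 (0.0614), and the AFFN1 call without AFFN1 1 (0.116), AFFN1 2 (0.11), control 1 (0.0891) or control 2 (0.0733). On day 14 Cd93 had 888, 1100 and 771 CPM in BN1 cells, 723, 1120 and 936 CPM in AFFN1 cells and 420, 1100 and 667 CPM in control cells. The library numbered 2 was the highest of each group and the groups overlapped, with log2 differences from control of 0.32 for BN1 (adjusted p = 0.6) and 0.33 for AFFN1 (adjusted p = 0.911). Within numbers 1, 2 and 3 the log2 differences from control were 1.08, 0.0 and 0.21 for BN1. For AFFN1 they were 0.78, 0.03 and 0.49. Blocked by number, Cd93 was called for neither fusion.

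Cd24a (ENSMUSG00000047139; mm10 chromosome 10, 43578284 to 43584265, plus strand), which encodes the heat-stable antigen, was higher on day 6 in BN1 cells than in AFFN1 or control cells. It had 1680, 1670 and 1610 CPM in BN1 cells, 1150, 1180 and 1010 CPM in AFFN1 cells and 955, 786 and 1210 CPM in control cells. The BN1 libraries stood above all others, whereas AFFN1 and control overlapped. BN1 cells exceeded control by 0.74 (edgeR log2, SE 0.14, adjusted p = 0.00497), a 1.66-fold difference, and this call was kept in each of the 6 fits without 1 library. AFFN1 cells differed from control by 0.17 (adjusted p = 0.438, interval -0.10 to 0.45). Without control 3 of day 6, however, the AFFN1 difference was 0.36 (adjusted p = 0.0357). In that fit 2250 of 12239 genes were called for AFFN1, against 1528 of 12068 with all libraries. BN1 exceeded AFFN1 by 0.56 (SE 0.14, adjusted p = 0.0258), a call that was lost in each of the 6 fits without 1 library (adjusted p 0.0634 to 0.0835). On day 14 Cd24a had 3920, 3970 and 4020 CPM in BN1 cells, 2500, 5060 and 4850 CPM in AFFN1 cells and 1590, 4430 and 3780 CPM in control cells. The libraries numbered 1 of AFFN1 and control, which stood apart in Ly6a, were the lowest of that day. The BN1 difference from control was 0.27 (adjusted p = 0.716), and -0.07 (adjusted p = 0.902) without those 2 libraries. Within numbers 1, 2 and 3 the log2 differences from control were 1.3, -0.16 and 0.09 for BN1. For AFFN1 they were 0.66, 0.19 and 0.36. Blocked by number, Cd24a was called for neither fusion on day 14. RSEM divides reads among near-identical copies, so the counts of Cd24a may include reads of related sequences.

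Bst1 (ENSMUSG00000029082; mm10 chromosome 5, 43818885 to 43843986, plus strand) encodes a GPI-anchored ectoenzyme that uses NAD. On day 14 it was higher with either fusion than in control within each replicate number, and the blocked fit called it for BN1 only. On that day it had 144, 143 and 216 CPM in BN1 cells, 129, 146 and 261 CPM in AFFN1 cells and 86.1, 100 and 172 CPM in control cells. The libraries numbered 3 were the highest of each group and the groups overlapped, but within each number both fusions stood above control. The BN1 libraries exceeded the control library of their number by 0.74, 0.51 and 0.32 on the log2 scale, and the AFFN1 libraries by 0.58, 0.54 and 0.60. Without the replicate number the edgeR difference for BN1 was 0.47 (SE 0.34, adjusted p = 0.47). Blocked by number, it was 0.51 (SE 0.12, adjusted p = 0.0265) for BN1 and 0.56 (SE 0.12, adjusted p = 0.0825) for AFFN1. Over all genes the blocked fit called 11.6% for BN1 and 0.558% for AFFN1. On day 6 Bst1 had 86.4, 75.0 and 51.3 CPM in BN1 cells, 82.9, 80.6 and 65.6 CPM in AFFN1 cells and 66.9, 63.6 and 94.6 CPM in control cells. The control library 3 was the highest and BN1 3 the lowest of that day. The log2 differences from control were -0.09 for BN1 (adjusted p = 0.78) and 0.02 for AFFN1 (adjusted p = 0.96). They were 0.30 (adjusted p = 0.031) and 0.32 (adjusted p = 0.0236) when the 3 libraries numbered 3 were left out, a setting chosen after seeing the data. In that setting 3890 of 12075 genes were called for BN1 and 3873 for AFFN1, against 2095 and 1528 of 12068 with all libraries. Bst1 shares up to 98 exon bases with Fbxl5 on the opposite strand, which had 23805 reads, and the strand setting of the counting is not given in the sources used here.

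Enpep (ENSMUSG00000028024; mm10 chromosome 3, 129269175 to 129332720, minus strand), which encodes glutamyl aminopeptidase, separated the days completely. On day 14 it had 7.96, 12.9 and 12.0 CPM in BN1 cells, 8.79, 7.99 and 4.84 CPM in AFFN1 cells and 32.6, 10.1 and 8.29 CPM in control cells. On day 6 it had 0.306, 0.459 and 0.624 CPM in BN1 cells, 1.18, 0.842 and 1.97 CPM in AFFN1 cells and 1.29, 0.706 and 1.20 CPM in control cells, from 6 to 36 reads per library. Every day 14 library stood above every day 6 library, and control 1 of day 14 was the highest of all. In control cells the edgeR difference, day 14 over day 6, was 3.98 (log2, SE 0.51, adjusted p = 2e-05), or 15.7-fold, and 3.12 (8.7-fold, adjusted p = 1.03e-05) without control 1 and AFFN1 1 of day 14. Between BN1 and AFFN1 cells of day 6 the difference was -1.52 (SE 0.44, adjusted p = 0.053), just short of the call, and DESeq2 gave an adjusted p of 0.0411. The BN1 libraries of day 6 also all stood below control, with a difference of -1.22 (adjusted p = 0.0886). On day 14 the differences from control were -0.65 (adjusted p = 0.495) for BN1 and -1.25 (adjusted p = 0.79) for AFFN1. When control 1 and AFFN1 1 were left out, the BN1 value turned to 0.23 (adjusted p = 0.749) and the AFFN1 value was -0.54 (adjusted p = 0.78). Without control 1 alone the AFFN1 value was -0.35 (adjusted p = 0.999). Within numbers 1, 2 and 3 the log2 differences from control were -2.02, 0.35 and 0.52 for BN1. For AFFN1 they were -1.88, -0.34 and -0.76. Blocked by number, Enpep was called for neither fusion on day 14.

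Among the antigens of later B cells, Cd37 (ENSMUSG00000030798; mm10 chromosome 7, 45233632 to 45239115, minus strand), which encodes a leukocyte tetraspanin, showed small differences with little spread. On day 6 it had 448, 370 and 454 CPM in BN1 cells, 485, 482 and 466 CPM in AFFN1 cells and 350, 304 and 344 CPM in control cells, and none of the 3 groups overlapped. BN1 exceeded control by 0.34 (edgeR log2, SE 0.10, adjusted p = 0.0374) and AFFN1 by 0.52 (SE 0.10, adjusted p = 0.00671). The BN1 call was lost without BN1 1 (adjusted p = 0.132), BN1 3 (0.111), control 1 (0.0712) or control 2 (0.104), and without the 3 libraries numbered 3 (0.0507). The AFFN1 call was kept in each of its 6 fits without 1 library. On day 14 Cd37 had 563, 660 and 486 CPM in BN1 cells, 545, 577 and 655 CPM in AFFN1 cells and 545, 507 and 587 CPM in control cells. The groups of day 14 overlapped, and the intervals of the difference from control were -0.26 to 0.35 for BN1 and -0.21 to 0.41 for AFFN1. In control cells Cd37 was 1.64-fold higher on day 14 than on day 6 (log2 0.72, SE 0.12, adjusted p = 0.00026).

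Cd38 (ENSMUSG00000029084; mm10 chromosome 5, 43868553 to 43912375, plus strand), which encodes an ectoenzyme that hydrolyses NAD, had the largest fusion difference of the 8 tested genes. On day 6 it had 15.9, 6.37 and 5.95 CPM in BN1 cells, 18.4, 20.7 and 16.4 CPM in AFFN1 cells and 1.29, 0.642 and 1.65 CPM in control cells. The 3 groups did not overlap, with AFFN1 the highest. BN1 exceeded control 7.66-fold (edgeR log2 2.94, SE 0.44, adjusted p = 0.00156) and AFFN1 exceeded control 15.1-fold (log2 3.91, SE 0.44, adjusted p = 0.000477). Both calls were kept in each fit without 1 library, with log2 differences of 2.32 to 3.27 for BN1 and 3.64 to 4.24 for AFFN1. BN1 differed from AFFN1 by -0.97 (SE 0.36, adjusted p = 0.124). Without BN1 1, the highest of its group, that difference was -1.59 (adjusted p = 0.00657).

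On day 14 Cd38 had 3.89, 8.87 and 15.9 CPM in BN1 cells, 2.85, 13.6 and 17.2 CPM in AFFN1 cells and 1.03, 9.02 and 12.5 CPM in control cells. The library numbered 1 was the lowest and that numbered 3 the highest of each group, and the groups overlapped throughout. The differences from control were 0.33 (SE 0.92, adjusted p = 0.871) for BN1 and 0.56 (SE 0.92, adjusted p = 0.956) for AFFN1. Blocked by number, they were 0.58 (SE 0.30, adjusted p = 0.221) and 0.68 (SE 0.29, adjusted p = 0.391), still without a call. In control cells Cd38 was 6.15-fold higher on day 14 than on day 6 (log2 2.62, SE 0.86, adjusted p = 0.0237). That call was lost without control 2 (adjusted p = 0.0567) or control 3 (0.094) of day 14, without control 1 (0.0626) or control 2 (0.0833) of day 6, and without the 3 day 6 libraries numbered 3 (0.0694). Without control 1 and AFFN1 1 of day 14 it was 3.17 (adjusted p = 0.000529). Cd38 lies 24566 bases from Bst1, and the antisense and intronic genes within it had 0 reads. Bst1, its neighbour and relative, differed from control by -0.09 and 0.02 on day 6, where Cd38 differed by 2.94 and 3.91.

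Cd40 (ENSMUSG00000017652; mm10 chromosome 2, 165055627 to 165072948, plus strand), which encodes the receptor for T cell help, was low in all groups, with its lowest group mean in BN1 cells of day 6. On that day it had 0.153, 0.287 and 0.397 CPM in BN1 cells (3, 5 and 7 reads), 2.59, 1.79 and 2.02 CPM in AFFN1 cells (44, 34 and 37 reads) and 1.62, 1.28 and 1.05 CPM in control cells (29, 20 and 21 reads). The 3 groups did not overlap, with BN1 below and AFFN1 above control. BN1 was 4.72-fold lower than control (edgeR log2 -2.24, SE 0.40, adjusted p = 0.00377) and 7.6-fold lower than AFFN1 (log2 -2.93, SE 0.39, adjusted p = 0.000838), and both calls were kept in each fit without 1 library. AFFN1 differed from control by 0.69 (SE 0.32, adjusted p = 0.194). On day 14 Cd40 had 0.122, 1.22 and 0.62 CPM in BN1 cells, 0.788, 0.246 and 0.136 CPM in AFFN1 cells and 0.604, 0.183 and 0.332 CPM in control cells, from 2 to 20 reads per library. The groups overlapped, and at this depth the intervals of the difference from control were wide, -0.98 to 2.53 for BN1 and -1.76 to 1.88 for AFFN1. In control cells Cd40 was 3.48-fold lower on day 14 than on day 6 (log2 -1.80, SE 0.67, adjusted p = 0.0391). Apart from control 1 of day 14, leaving out any of the 6 control libraries ended that call (adjusted p 0.0503 to 0.13), as did leaving out the 3 day 6 libraries numbered 3 (0.0725).

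Ms4a1 (ENSMUSG00000024673; mm10 chromosome 19, 11249675 to 11266241, minus strand), which encodes CD20, was at or near the floor and did not pass the filter on low counts. On day 14 it had 0, 0 and 0 reads in BN1 cells, 3, 2 and 0 reads in AFFN1 cells and 5, 1 and 8 reads in control cells. On day 6 it had 0, 1 and 0 reads in BN1 cells and 0 reads in all AFFN1 and control libraries. A count of 0 over 3 libraries allows a level of up to 0.0613 CPM in day 14 BN1 cells and 0.0561 CPM in day 6 control cells (3 counts over the group, counting error only). The 14 reads of day 14 control cells correspond to 0.291 CPM over the group (95% counting interval 0.159 to 0.489). Set against those floors, this level makes Ms4a1 at least 4.75-fold lower in BN1 cells of day 14, and at least 5.19-fold higher in control cells of day 14 than of day 6. These bounds take the 14 reads without their own counting error, and control 3 gave 8 of them. Against the 5 reads of AFFN1 cells the ratio of control to AFFN1 was 2.77 (95% counting interval 0.941 to 9.81). In an edgeR fit without the filter the difference between the control cells of the 2 days passed (adjusted p = 0.0259), and no fusion difference did.

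Taking the genes as a group, the comparison of BN1 with control cells on day 6 called 5 of the 8 tested. Cd38, Cd93, Cd24a and Cd37 were higher and Cd40 was lower, while Spn, Bst1 and Enpep were not called. Over all 12068 tested genes 17.4% were called, 8.83% higher and 8.53% lower. The share among these 8 genes was larger than over all genes, a difference that was not tested. Their median log2 difference was 0.20, beside -0.02 over all genes tested.

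AFFN1 cells of day 6 had 3 of the 8 called against control, all higher, namely Cd38, Cd37 and Cd93. The share over all genes was 12.7%, with 7.79% higher and 4.87% lower. The median over the 8 was 0.41, beside -0.02 over all genes tested. The fusions share the control libraries of that day, so their lists of calls are not independent of each other. Set directly against each other on day 6, BN1 cells had Cd24a higher and Cd40 lower than AFFN1 cells, 2 of 8, where 11.2% of all genes were called, 4.99% higher and 6.19% lower. For Cd93, Cd37 and Spn the intervals of the difference between the fusions were -0.31 to 0.43, -0.37 to 0.01 and -0.05 to 0.49.

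**Figure D3:**
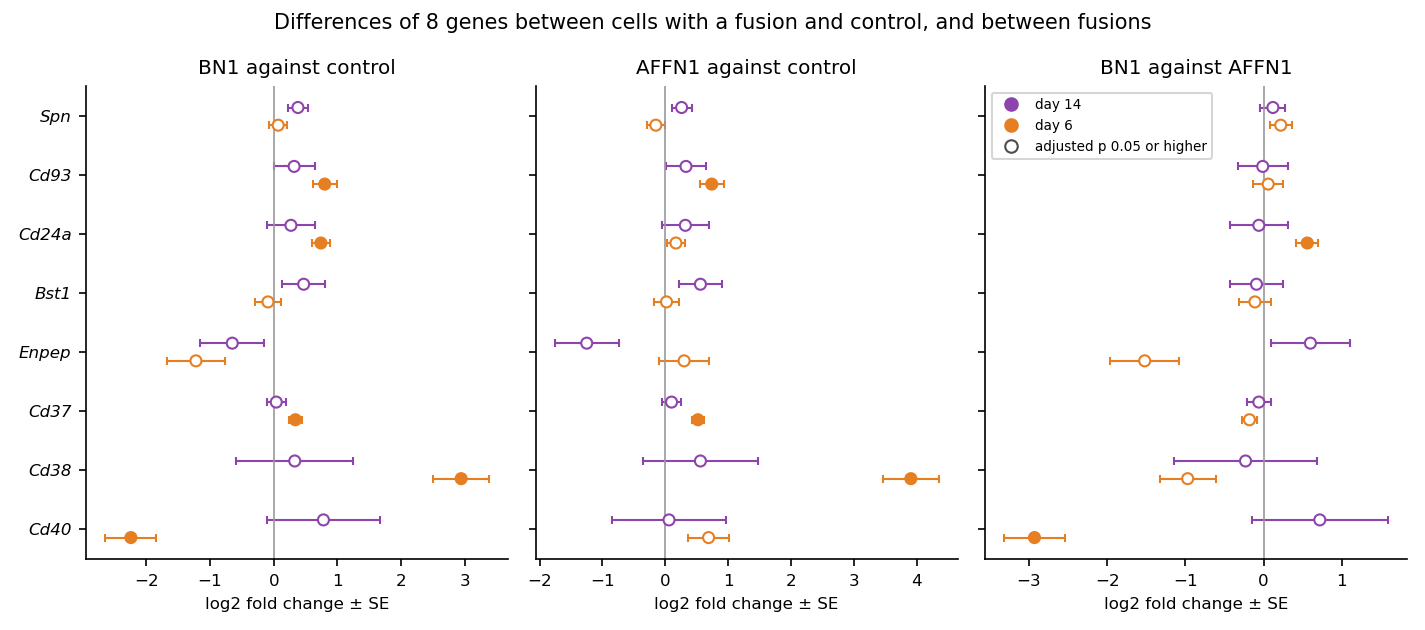
Log2 fold change ± SE of the 8 tested genes for BN1 against control, AFFN1 against control and BN1 against AFFN1, on day 14 (purple) and day 6 (orange); filled points have an adjusted p under 0.05. All filled points are of day 6, with Cd38 at 2.94 for BN1 and 3.91 for AFFN1 and Cd40 at -2.24 for BN1.

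On day 14 none of the 8 genes was called between BN1 and control, AFFN1 and control, or BN1 and AFFN1, either by edgeR without the replicate number or by DESeq2. Few genes were called at all by edgeR, 0.0257% for BN1 against control, 0.0429% for AFFN1 against control and 0.0% for BN1 against AFFN1. At an unadjusted p under 0.05 the counts among the 8 were 1 (Spn, BN1 against control), 1 (Enpep, AFFN1 against control) and 0. Over all 11657 genes tested they were 2351, 721 and 992. DESeq2 called 737, 76 and 91 genes in all in the 3 comparisons. Equally numbered libraries share a code in the labels and deviated together, and with the number as a block edgeR called 11.6% of genes for BN1 against control, 0.558% for AFFN1 against control and 0.18% for BN1 against AFFN1. Bst1, higher with BN1 than in control, was the gene of the 8 that then passed, a share near the 11.6% over all genes. Spn was next, with a blocked difference of 0.40 for BN1 (SE 0.13, adjusted p = 0.0675), higher in 3 of 3 numbered pairs. With AFFN1, Bst1 and Spn were also higher than in control in 3 of 3 numbered pairs.

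**Figure D4:**
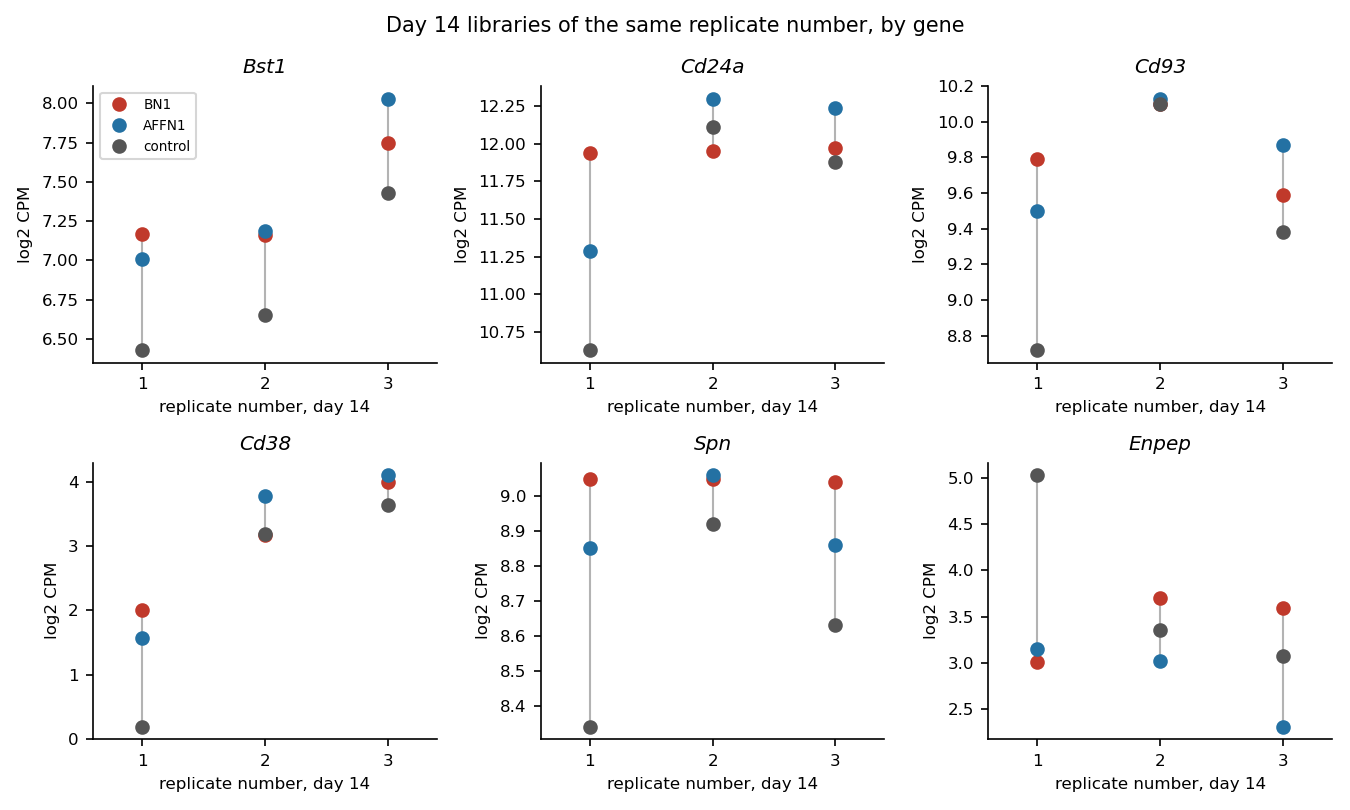
Log2 CPM of Bst1, Cd24a, Cd93, Cd38, Spn and Enpep in the 9 day 14 libraries, by replicate number (grey lines join the libraries of a number). Bst1 of both fusions lies above control at each number, and control 1 is the lowest library for Cd24a, Cd93 and Cd38 and the highest for Enpep.

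In control cells, day 14 over day 6, 5 of the 8 genes were called, Cd24a, Cd37, Cd38 and Enpep higher and Cd40 lower. Over all genes 43.9% were called, 22.4% higher and 21.4% lower. Cd24a was 3.31-fold higher (log2 1.73, SE 0.31, adjusted p = 0.000333). Cd93 and Bst1 stood at 0.62 and 0.67, each with an adjusted p of 0.0875, and without control 1 and AFFN1 1 of day 14 they were called at 0.92 (adjusted p = 0.00487) and 0.89 (adjusted p = 0.0277). Of the antigens gained on the way to the pre-B stage, Enpep and Cd24a were called in every fit without 1 library. The day, the sex of the animals and the experiment cannot be told apart in these values.

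Whether a fusion's difference from control changed between the days was tested on all 18 libraries. Such a change cannot be told apart from one that goes with the sex of the animals or the experiment. None of the 8 was called by edgeR without the replicate number, where 2.97% of genes were called for BN1 and 1.46% for AFFN1. DESeq2 also called none of the 8, and over all 12567 genes it called 605 for BN1 and 342 for AFFN1. At an unadjusted p under 0.05 by edgeR there were 2 of the 8 for BN1 and 3 for AFFN1, beside 1635 and 1220 of all 12567 genes. Cd38 had the largest change for AFFN1, -3.34 (log2, SE 1.13, adjusted p = 0.259), and stood at -2.60 (SE 1.13, adjusted p = 0.342) for BN1. In the blocked fit, where 5.16% and 2.54% of genes were called, Cd38 passed for BN1 (-2.28, SE 0.56, adjusted p = 0.0342) and for AFFN1 (-3.26, SE 0.55, adjusted p = 0.00722). Without control 1 and AFFN1 1 of day 14 Cd38 passed at -3.15 (adjusted p = 0.0241) and -3.41 (adjusted p = 0.0359). Cd24a then passed for BN1 at -0.83 (adjusted p = 0.0279). In that setting 502 and 243 of 12759 genes were called for BN1 and AFFN1, against 373 and 183 of 12567 with all libraries. It kept BN1 1 (Cd38 at 3.89 CPM) while leaving out control 1 (1.03 CPM), so the day 14 pairs were broken for BN1. For Cd40 the BN1 value was 3.02 (SE 0.98, adjusted p = 0.134), which passed without BN1 1 of day 14 (3.51, adjusted p = 0.0452).

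Other genes of the same classes were read from lists chosen beside the 9. Of 22 other B-lineage stage antigens, 18 were tested on day 6. BN1 cells had 5 of them higher and 1 lower than control, where 8.83% and 8.53% of all genes were called higher and lower. AFFN1 cells had 4 higher and 0 lower, beside 7.79% and 4.87% of all genes. Cd86, a costimulatory ligand, averaged 9.84 ± 3.22 CPM in BN1 cells and 13.4 ± 2.44 CPM in AFFN1 cells, against 3.0 ± 0.541 CPM in control cells (SD, n = 3; edgeR adjusted p = 0.00137 and 0.000524). Cxcr5, a chemokine receptor of follicular B cells, averaged 12.7 ± 0.343 CPM in BN1 cells, 1.78 ± 0.933 CPM in AFFN1 cells and 2.35 ± 1.01 CPM in control cells, and was called for BN1 against control (log2 2.42, adjusted p = 0.00134). Cd22, an inhibitory coreceptor, and Tnfrsf13c, the BAFF receptor, were higher in AFFN1 cells than in control cells, at 104 ± 5.15 against 18.7 ± 5.38 CPM and 19.5 ± 2.84 against 5.49 ± 1.27 CPM. Cd55, a complement regulator, was 16.2-fold lower in BN1 cells, at 0.665 ± 0.698 CPM against 11.1 ± 1.23 CPM in control cells (adjusted p = 0.000549). Between the fusions 1 was higher and 2 were lower in BN1 cells. On day 14 none of the 17 tested was called in any of the 3 comparisons, and in control cells 7 of 19 were higher and 2 lower on day 14 than on day 6, a share near the 43.9% called over all genes. Cxcr5 had the largest of the named day differences, with 192 ± 65.3 CPM on day 14 against 2.35 ± 1.01 CPM on day 6.

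Relatives and partners of the 9 genes are counted beside all genes tested on day 6. Of all genes 8.83% were called higher and 8.53% lower for BN1, and 7.79% higher and 4.87% lower for AFFN1. Departures of these short lists from those shares were not tested. Enzymes acting on NAD and nucleotides, both ectoenzymes and intracellular enzymes such as Parp1, had 5 tested members on day 6. Entpd1 (CD39), an ectonucleotidase, was 10.6-fold lower in BN1 cells, at 1.22 ± 0.767 CPM against 13.0 ± 1.05 CPM in control cells (edgeR adjusted p = 0.000194), and 0 of the 5 were called for AFFN1. Among 6 tested aminopeptidases and related peptidases, Dpp4 (CD26) was the 1 called for each fusion, at 4.51 ± 3.16 CPM in BN1 cells and 42.1 ± 4.42 CPM in AFFN1 cells, against 239 ± 79.3 CPM in control cells (adjusted p = 7.29e-05 and 0.00325). Of 13 tested tetraspanins, the family of Cd37, 3 were higher and 1 lower with BN1 and 2 were higher and 1 lower with AFFN1. Cd82 was 2.72-fold lower in BN1 cells, at 8.83 ± 1.27 CPM against 23.9 ± 2.68 CPM in control cells, and Tspan3 was 1.43-fold higher with each fusion. Of 11 tested adaptors of CD40 and of noncanonical NF-kappaB signalling, 0 were called for BN1, and for AFFN1 the kinase gene Map3k14 was higher (1.32-fold, adjusted p = 0.039) and Chuk lower (1.28-fold, adjusted p = 0.0215). Of 6 tested relatives of CD93 and partners of CD43, 3 were lower with BN1, among them Ezr, a linker of CD43 to the cytoskeleton, at 312 ± 18.2 against 461 ± 46.6 CPM in control cells, while 1 was higher and 2 lower with AFFN1. Of 3 tested Siglecs and partners of CD24, Siglecg was higher in AFFN1 cells, at 25.8 ± 4.29 CPM against 6.83 ± 1.71 CPM in control cells (adjusted p = 0.00358). Of 15 Ms4a family genes 5 could be tested, 0 of which were called for BN1 and 1, lower, for AFFN1. On day 14 none of these 7 lists had a called gene in the comparisons of the fusions with control or with each other. Over all genes 0.0257% (BN1 against control), 0.0429% (AFFN1 against control) and 0.0% (BN1 against AFFN1) were called there.

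Markers of other cells were read beside these values. Myeloid and neutrophil markers summed to 49.2 to 146 CPM in BN1 cells, 76.9 to 86.7 CPM in AFFN1 cells and 57.0 to 150 CPM in control cells of day 6, ranges that overlap, and 2 of the 9 averaged over 5 CPM in each group. The summed level of 6 stem and progenitor markers was 1130 to 1320 CPM in BN1 cells, 1650 to 1960 CPM in AFFN1 cells and 1240 to 1290 CPM in control cells, most of it from Ly6a. The 6 markers of dendritic cells summed to 720 to 729 CPM in BN1 cells, 767 to 937 CPM in AFFN1 cells and 455 to 631 CPM in control cells, higher with either fusion. Within that list Ccr9 averaged 280 CPM in BN1 cells, 270 CPM in AFFN1 cells and 34.4 CPM in control cells, and Flt3 averaged 76.3 CPM in BN1 cells, 118 CPM in AFFN1 cells and 32.7 CPM in control cells. Irf8 averaged 297 CPM in BN1 cells, 305 CPM in AFFN1 cells and 320 CPM in control cells, and Bst2 72.3 CPM in BN1 cells, 173 CPM in AFFN1 cells and 135 CPM in control cells. The defining genes Siglech and Zbtb46 had 1 to 8 reads per group, so the list did not move as a whole. The 7 erythroid and megakaryocyte markers summed to 28.7 to 30.3 CPM in BN1 cells, 4.16 to 5.6 CPM in AFFN1 cells and 2.46 to 2.95 CPM in control cells. Most of the BN1 level was Car2, a carbonic anhydrase, at 25.4 CPM. Of the globin genes, Hbb-bt averaged 3.57 CPM in BN1 cells, 1.92 CPM in AFFN1 cells and 1.38 CPM in control cells, and Hba-a1 had 0 reads in all 3 groups. The 7 T cell markers summed to 81.1 to 102 CPM in BN1 cells, 83.5 to 94.2 CPM in AFFN1 cells and 61.5 to 66.1 CPM in control cells. Nearly all of it was the kinase gene Lck, and Cd3e, Cd3g, Cd3d, Cd4 and Cd8a had 0 to 4 reads per group. Endothelial cells also carry CD93, and their 6 markers summed to 357 to 371 CPM in BN1 cells, 300 to 369 CPM in AFFN1 cells and 284 to 359 CPM in control cells. Nearly all of that was Pecam1 and Egfl7, while Cdh5 and Emcn had 0 reads and Tek 0 to 2 reads per group. Kdr, also of that list, averaged 0.554 CPM in BN1 cells (30 reads), 5.26 CPM in AFFN1 cells (283 reads) and 1.63 CPM in control cells (89 reads). The part of cells of any of these types in the values of Cd93, Cd38 and Cd40 was not tested.

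For each gene that was tested, the 2 closest of 12566 other profiles over the 18 libraries were found by the mean absolute difference of log2 CPM after each gene's own mean was taken out, as a description. Cd24a lay closest to Dap (0.176) and to Ighm (0.21), the immunoglobulin heavy chain constant gene, and its own mean deviation was 0.83. Enpep was nearest to Rai14 (0.506) and 4930570N18Rik (0.512), beside an own deviation of 1.708. Cd38 was nearest to Lrrc23 (0.587) and Ighv1-7 (0.635), beside 1.288, and Cd40 to Lifr (0.488) and Kdr (0.554), beside 0.991. The closest pairs belonged to the genes that varied least, Spn with Colgalt1 (0.078) and Trak1 (0.086) and Cd37 with Cbx6 (0.093) and Nrros (0.11). Cd93 lay nearest to Sp4 (0.16) and Sh3kbp1 (0.173), and Bst1 to Smap2 (0.183) and Snn (0.189).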

How the data were processed

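The deposited table holds expected counts per gene, estimated by the authors. STAR, RSEM and DESeq2 were used with mm10, per the submitters' processing notes, while the sources used here give neither versions nor annotation nor strand setting. A TruSeq Stranded mRNA kit was used, per the labels' protocols. Of each library's values 1.74 to 2.12% were not whole, and expected counts were rounded. Gene coordinates are those of GENCODE M21, in which 32158 of 32285 identifiers were found.

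In R 4.3.3, edgeR 4.0.16 (filterByExpr, TMM, robust quasi-likelihood test, two-sided, Benjamini-Hochberg adjustment over all genes, call at an adjusted p under 0.05) compared groups within a day on its 9 libraries and across days on all 18, 9 comparisons in all. DESeq2 1.42.0 was an alternative. Printed CPM are scaled over all 18 libraries, and an interval is the estimate plus or minus 2 SEs. Means are given ± SD. The procedure was tested on simulated data.

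Deviations from the group means correlated at 0.261 to 0.599 in the 9 equally numbered pairs of day 14 and at -0.474 to 0.0325 in the other 18. Since these numbers also share a code in the labels, they were taken as pairs. On day 6 the same-number pairs ran from -0.299 to 0.332 and the numbers were not taken as pairs. Libraries of a group all differed by more than counting noise, so none was taken as a duplicate.

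All 9 genes are named. Of each of 8 lists, at most 3 called genes per comparison, by smallest adjusted p and with at least 5 CPM in the higher group, could be named. The genes and lists were chosen with earlier results of these data known. Settings that leave out several libraries were chosen after seeing the data.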

Additional observations from a re-analysis of the deposited data

Results flagged for a closer look

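With the replicate number as a block, the difference of Cd38 from control was not the same on the 2 days by the test of that difference itself. The change of the BN1 difference, day 14 minus day 6, was -2.28 (edgeR log2, SE 0.56, adjusted p = 0.0342). The change of the AFFN1 difference was -3.26 (SE 0.55, adjusted p = 0.00722). Both tests use the same control libraries, and the numbers were not taken as pairs on day 6. The day, the sex of the animals and the experiment cannot be told apart in these changes. Without the block the changes were -2.60 (adjusted p = 0.342) and -3.34 (adjusted p = 0.259).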

How the results depend on the processing

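Of 113 recomputed counts of called genes among the 9, 93 stayed within 1.5 times the count reported, 13 were lower and 7 higher. For BN1 against control on day 6 (5 genes), leaving out 1 library gave 3 to 5. For AFFN1 against control on day 6 (3 genes), leaving out the 3 libraries numbered 3 gave 5. Calls over all genes rose as well in that setting, from 1528 of 12068 to 3873 of 12075. For BN1 against AFFN1 on day 6 (2 genes), the replicate block gave 1, losing Cd24a (adjusted p = 0.0542), and leaving out 1 library gave 1 to 2. For BN1 against control on day 14 (0 genes), the block gave 1. For control cells of the 2 days (5 genes), leaving out the day 6 libraries numbered 3 gave 3 and leaving out 1 library gave 3 to 7. For the change of the BN1 difference (0 genes), the block gave 1, leaving out control 1 and AFFN1 1 of day 14 gave 2, and leaving out 1 library gave 0 to 1. For the change of the AFFN1 difference (0 genes), the block gave 1 and leaving out control 1 and AFFN1 1 gave 1. Calls over all genes rose as well without control 1 and AFFN1 1. They went from 373 to 502 for the BN1 change and from 183 to 243 for the AFFN1 change, of 12567 and then 12759 genes. The cause of these shifts was not tested. The block changed no other call among the 9 genes. The control cells of the 2 days have no blocked value, since a number belongs to 1 day only.

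Of 903 recomputed log2 differences, 806 kept their sign and their side of the threshold, 29 lost a call, 17 gained one and 51 changed sign, none of the last from a call. Leaving out the day 6 libraries numbered 3 turned Bst1 for BN1 against control to 0.3, Spn and Enpep for AFFN1 against control to 0.09 and -0.01, and the change of the AFFN1 difference of Cd24a to -0.08. Leaving out control 1 and AFFN1 1 of day 14 turned Cd24a, Cd38 and Enpep for BN1 against control to -0.07, -0.19 and 0.23, and Cd40 for AFFN1 against control to -0.41. The block turned Cd24a and Cd93 for BN1 against AFFN1 on day 14 to 0.05 and 0.01. Leaving out 1 library gave these ranges across 0. On day 6, BN1 against control ran from -0.05 to 0.26 for Spn and -0.26 to 0.13 for Bst1. AFFN1 against control ran from -0.27 to 0.03 for Spn, -0.08 to 0.23 for Bst1 and -0.09 to 0.55 for Enpep. BN1 against AFFN1 ran from -0.09 to 0.15 for Cd93 and -0.28 to 0.07 for Bst1. On day 14, BN1 against control ran from -0.05 to 0.56 for Cd24a, -0.06 to 0.15 for Cd37, -0.25 to 0.93 for Cd38, -0.02 to 1.33 for Cd40 and -0.97 to 0.25 for Enpep. AFFN1 against control ran from -0.95 to 0.61 for Cd40. BN1 against AFFN1 ran from -0.32 to 0.11 for Cd24a, -0.17 to 0.05 for Cd37, -0.81 to 0.21 for Cd38, -0.09 to 1.73 for Cd40, -0.16 to 0.15 for Cd93 and -0.31 to 0.29 for Bst1. In control cells Spn ran from -0.12 to 0.21 between the days, and the change of the AFFN1 difference from -0.17 to 0.45 for Cd24a and -0.67 to 0.02 for Cd93. Depth limits Ms4a1, Cd40 and day 6 Enpep, with 0 to 44 reads per library.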
